A study of Mus musculus with 8 samples.

Results

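The Hedgehog pathway genes described here were 9 members fixed by symbol: the ligand Shh, the receptor Ptch1, the ligand-binding inhibitor Hhip, the co-receptor Gas1, the signal transducer Smo, the inhibitor Sufu and the transcription factors Gli1, Gli2 and Gli3. Of these, 8 had a row among the 23861 genes of the hair follicle stem cell (HFSC) table and 6 had one among the 16231 genes of the epidermal stem cell (EpdSC) table. Shh had a row in neither, and Gli1 and Hhip had none in the EpdSC table; they were not analysed further there. All members with a row passed the filter on low counts in HFSCs, and all EpdSC rows were tested.

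The libraries were bulk RNA-seq of cells sorted from telogen dorsal skin of mice. HFSCs were sorted as CD34+CD49f+Sca-1- cells and EpdSCs, which the labels call epidermal progenitor cells, as CD34-CD49f+Sca-1+ cells. Each cell type had 2 WT and 2 Msx2-KO libraries. Msx2-KO mice carried a germline null allele in every cell, a neo cassette inserted upstream of exon 2 of the homeobox gene Msx2, and the WT mice were hair cycle-matched C57BL/6J. Mice were 2 months old in the WT HFSC group and 6 months old in the other 3 groups, so age and genotype cannot be told apart in HFSCs. In both tables the WT and Msx2-KO libraries bear names from separate number series, and handling that followed those series cannot be told apart from genotype either. Nothing in the labels says that the replicates were separate animals, so the p-values measure only the spread between these libraries.

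Hedgehog ligands bind Ptch1, which otherwise keeps Smo silent. Once released, Smo acts at the primary cilium to free the Gli factors from Sufu and from processing into repressors, and Gli1, Ptch1 and Hhip are themselves transcribed in response. In skin the pathway is known for driving the onset of hair growth, when the hair germ and then the bulge respond to ligand, and for basal cell carcinoma when it is active without ligand.

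HFSC libraries held 3132974 to 11016659 estimated counts, and the EpdSC libraries corresponded to about 15214000 to 21093000 counts. Mitochondrial ribosomal RNA separated the genotypes in both tables and in opposite directions, at 8.94% and 36.3% of counts in WT against 49.4% and 53.2% in Msx2-KO HFSCs, and at 23.5% and 16.4% in WT against 0.073% and 6.18% in Msx2-KO EpdSCs. Fewer genes were above 0 in Msx2-KO, 11448 and 14307 against 22574 and 19784 in HFSCs and 12765 and 15189 against 15876 and 15947 in EpdSCs. HFSC values are given as CPM, counts per 1000000 counts, after TMM scaling, and EpdSC values as the normalized counts of the deposited table. The 2 scales are not comparable with each other. Msx2 itself had 7.08 and 2.26 CPM in WT HFSCs against 4.36 and 3.82 CPM in Msx2-KO HFSCs, and 58.5 and 85.4 normalized counts in WT against 150.3 and 22.2 in Msx2-KO EpdSCs. Because counts of the targeted gene overlapped between genotypes in both cell types, Msx2-KO below stands for the libraries labelled so, and every direction rests on that label; counts per gene do not separate its exons. Cd34 had 491 and 436 CPM in WT HFSCs against 177 and 144 CPM in the Msx2-KO libraries, and had no row in the EpdSC table. Ly6a, which encodes Sca-1, had no row in the HFSC table and stood at 472 and 544 normalized counts in WT against 826 and 3493 in EpdSC Msx2-KO libraries. The basal keratins Krt14 and Krt5 were abundant in all EpdSC libraries, at 71869 normalized counts or more.

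Among the members, 1 difference between genotypes passed the test: Gas1 rose in Msx2-KO-labelled EpdSCs. Gas1, a membrane-anchored co-receptor that binds Hedgehog ligand together with Ptch1, lies on chromosome 13 from 60174405 to 60177365 of GRCm38, on the minus strand. Smo, on chromosome 6 from 29735503 to 29761365 on the plus strand, had its Msx2-KO values under its WT values in either cell type but did not pass the test. The promoters of these 2 genes are shown because the results turn on them, as the 250 bases before the RefSeq start (GRCm38.p6), chr13:60177536-60177785 on the minus strand for Gas1 and chr6:29735247-29735496 on the plus strand for Smo.
Gas1: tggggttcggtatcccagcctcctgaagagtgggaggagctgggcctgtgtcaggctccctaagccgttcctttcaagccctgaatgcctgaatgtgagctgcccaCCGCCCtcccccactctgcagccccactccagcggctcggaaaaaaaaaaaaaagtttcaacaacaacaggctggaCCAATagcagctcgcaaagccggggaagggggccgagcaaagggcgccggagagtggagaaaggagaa
Smo: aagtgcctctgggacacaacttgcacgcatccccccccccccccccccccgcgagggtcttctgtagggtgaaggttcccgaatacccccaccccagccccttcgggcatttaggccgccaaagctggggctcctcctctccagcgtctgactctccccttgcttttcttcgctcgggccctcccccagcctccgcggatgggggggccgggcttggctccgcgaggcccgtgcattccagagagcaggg
Capitals mark a GC box (GGGCGG, here as CCGCCC on the other strand) that begins 144 bases before the Gas1 start and a CCAAT box that begins 68 bases before it. In windows of 300 bases, from 250 before to 50 after the start, a GC box stood in 35.7% and a CCAAT box in 37.4% of 32851 promoters when both strands were searched. Of the 7 members with a promoter in the reference table, 6 held a GC box, Smo being the exception, and 2 held a CCAAT box. The GLI site GACCACCCA stood on either strand in 83 of the 32851 promoters, 0.253%, and in 0 of the 7 members. These matches are descriptions of the letters and were not tested for use.

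In EpdSCs, Gas1 had 432 and 460.4 normalized counts in the WT libraries against 20744 and 10324 in the Msx2-KO-labelled libraries. Both values in Msx2-KO lay far above both in WT. The means were 446 ± 20.1 (SD, n = 2) and 15534 ± 7368 (SD, n = 2), a ratio of 34.8. On the log2(value + 1) scale the difference was 5.03 (standard error 0.59, 95% interval 3.37 to 6.69, adjusted p = 0.0288, limma over all 16231 genes by the Benjamini-Hochberg method). Genes called higher, with adjusted p below 0.05 and more than 2-fold apart, made up 1.57% of all genes tested, those called lower 7.78%, and both together 9.35%. Of the 6 members, 1 was called higher and 0 lower. By size, Gas1 was number 80 among the 255 genes called higher. The median log2 fold change of all EpdSC genes was -0.64, so Gas1 stood 5.67 above it. The call was lost without either WT library, at adjusted p = 0.349 without WT replicate 1 and 0.329 without WT replicate 2, with log2 fold changes of 4.99 and 5.08. In these 2 limma fits 0 genes of the table were called, while 2060 and 2077 had an unadjusted p under 0.05. It was also lost with edgeR on values turned back to counts (log2 fold change 5.13, adjusted p = 0.0604), a setting chosen after seeing the data that called 0 genes and left 5180 at an unadjusted p under 0.05.

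**Figure D1:**
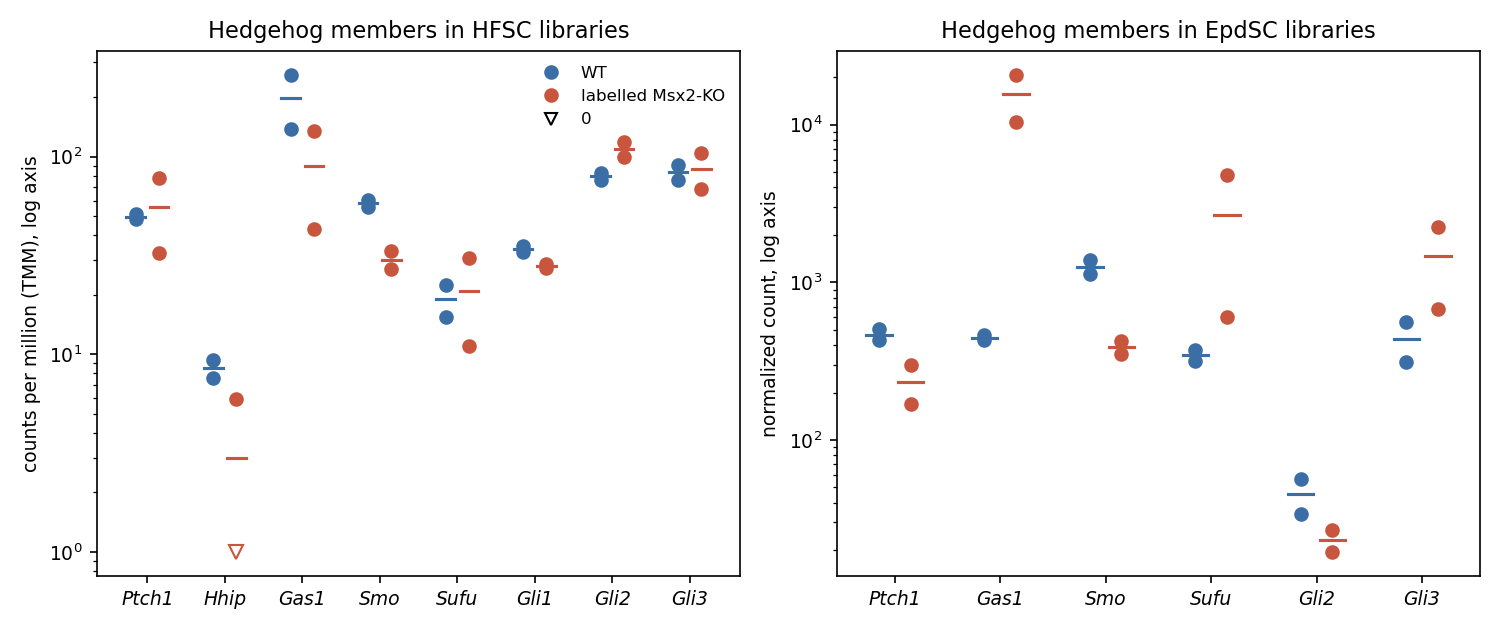
Values of the Hedgehog members in each library, with HFSCs on the left in CPM and EpdSCs on the right in normalized counts, both on log axes. Each point is 1 library, blue for WT and red for Msx2-KO-labelled libraries, bars are means of 2, and the open triangle marks Hhip at 0 in 1 HFSC library. In EpdSCs Gas1 lay at 10324 and 20744 in Msx2-KO against 432 and 460.4 in WT, and in HFSCs it lay lower in Msx2-KO.

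An antisense gene, Gm48488, overlaps an exon of Gas1 on the opposite strand. It had 58.7 and 71.7 normalized counts in WT EpdSCs and was listed at 0 in both EpdSC Msx2-KO-labelled libraries. The kit marks strand, but how counting treated strand is not given in the sources used here, so reads of Gas1 and Gm48488 may not be fully separated. The count of Gm48488 was below that of Gas1 in each of these libraries.

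Gas1 is also known from dermal fibroblasts and the dermal papilla. Of the 7 fibroblast markers listed, headed by Col1a1 and Col1a2, 0 had a row in the EpdSC table. Of the 6 dermal papilla markers, 1 had a row, Rspo3, at 275 and 285 normalized counts in WT against 40.7 and 512 in Msx2-KO. Other marker lists differed in level between the same libraries. The summed suprabasal list, headed by Krt10 and Krt1, lay at 193459 to 272064 normalized counts in WT and 42672 to 72214 in Msx2-KO, with 5 of its 7 genes lower in both Msx2-KO-labelled libraries. The basal list, headed by Krt14 and Krt5, summed to 246705 to 294511 in WT and 532527 to 673154 in Msx2-KO. Of its 7 genes, 4 were higher in both Msx2-KO-labelled libraries and 1 was lower in both. The Schwann and nerve list, 4 of 5 with a row and its defining marker Sox10 without one, summed to 5267 to 5585 in WT and 20883 to 29482 in Msx2-KO, mostly through Erbb3 and Mbp. Immune markers, headed by Ptprc and Cd74, summed to 56.0 to 673 in WT and 2.55 to 3.37 in Msx2-KO. The HFSC marker list, headed by Krt15, Lhx2 and Sox9, had 7 of 8 genes with a row. It summed to 81449 to 98292 in WT and 180048 to 232532 in Msx2-KO, mostly through Krt15. That gene alone had 79951 and 96241 in WT against 230109 and 177798 in Msx2-KO. Of the 7 genes, 3 were higher in both Msx2-KO-labelled libraries and 0 were lower in both. Of the sebaceous list, Scd1, Mgst1 and Fasn had a row and summed to 6556 to 7145 in WT and 10941 to 25390 in Msx2-KO. Among these 3, 2 were higher in both Msx2-KO-labelled libraries and 1 was lower in both. The part of these lists, and of the mitochondrial ribosomal RNA share that also parted the genotypes, in the Gas1 difference was not tested. In bulk libraries more cells of a type and more RNA per cell cannot be told apart.

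In HFSCs the order was the reverse. Gas1 had 137 and 260.3 CPM in WT against 43.1 and 135 CPM in Msx2-KO-labelled libraries, from 396 to 1029 estimated counts. The Msx2-KO values were under the WT values, the higher of them by a narrow margin. The log2 fold change was -1.16 (standard error 0.68, 95% interval -3.02 to 0.71, adjusted p = 0.527, edgeR over 14422 genes). The Gas1 value fell to -2.21 when Msx2-KO replicate 2 was dropped and stood at -0.58 when Msx2-KO replicate 1 was dropped. Gas1 thus differed in opposite directions in the 2 cell types, a contrast that was not tested, since the tables were normalized separately. Its overlapping partner Gm48488 had 9.22 and 6.04 CPM in WT HFSCs against 3.70 and 16.3 CPM in Msx2-KO. The fibroblast list had 4 of 7 genes with a row in HFSCs and summed to 50.9 to 65.0 CPM in WT and 14.2 to 28.2 CPM in Msx2-KO, lower in Msx2-KO as Gas1 was. The 2 dermal papilla markers with a row, Crabp1 and Alx4, summed to under 2 CPM in each library. The summed sebaceous list, 5 of 6 genes with a row, lay at 68.6 to 89.5 CPM in WT and 965 to 1265 CPM in Msx2-KO-labelled HFSCs, and the suprabasal list at 171 to 199 and 751 to 2848 CPM. The HFSC marker list, with all 8 genes present, summed to 6185 to 6397 CPM in WT and 3385 to 3676 CPM in Msx2-KO. Of the 8, 6 were lower in both Msx2-KO-labelled libraries and 1 was higher in both. The part of these markers, and of the mitochondrial ribosomal RNA share, in the Gas1 values was not tested.

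No member was called in HFSCs, where 0% of the genes tested were called in either direction by edgeR. At an unadjusted p under 0.05 there were 2614 such genes, 1 of them a member, and DESeq2 called 674 genes but 0 members. The Msx2-KO values were under both WT values for 4 members (Gas1, Smo, Hhip and Gli1) and above them for 1 (Gli2), where the shares over all genes tested were 33.5% below and 17.5% above. In EpdSCs the groups did not overlap for any of the 6 members, 3 above WT (Gas1, Sufu and Gli3) and 3 below (Smo, Ptch1 and Gli2), against 27.8% above and 44.5% below over all genes. With 2 libraries a group, the smallest two-sided p of an exact permutation test on 1 gene is 0.333.

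**Figure D2:**
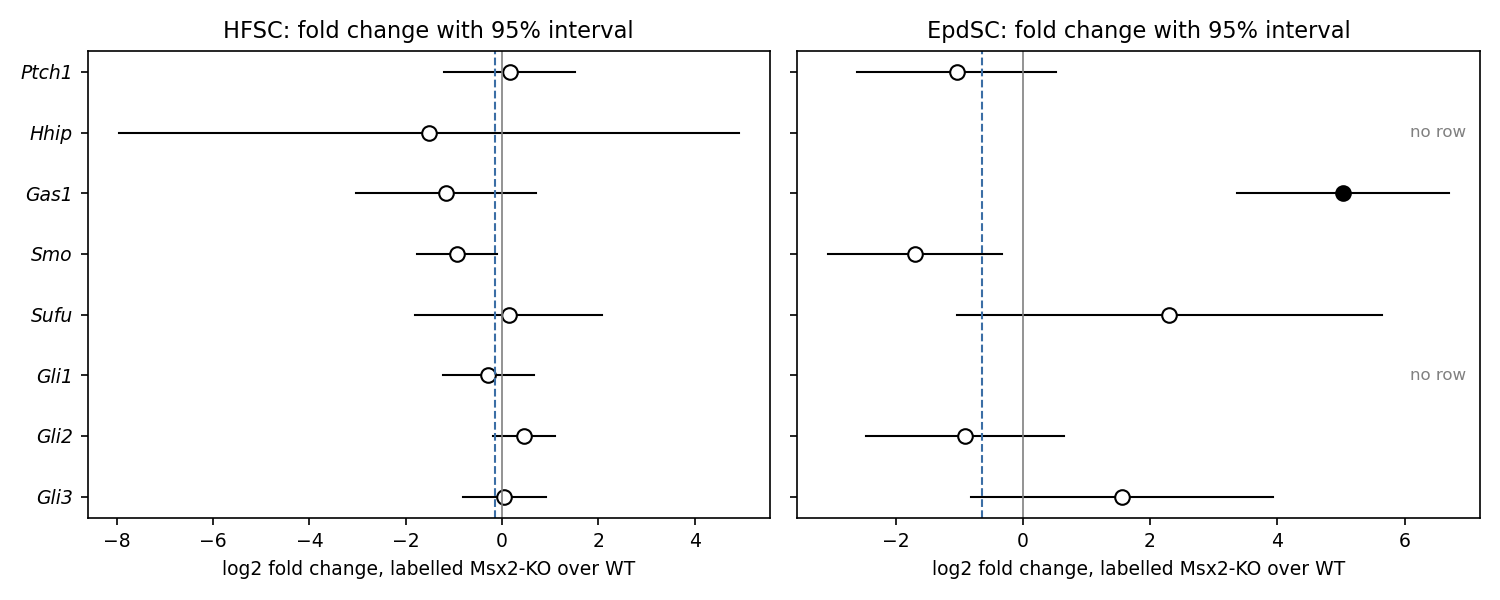
Log2 fold changes of the members, Msx2-KO-labelled libraries over WT, in HFSCs (edgeR, left) and EpdSCs (limma on log2(value + 1), right). Bars are 95% intervals, filled points passed the test, and the dashed line is the median of all genes tested, -0.14 in HFSCs and -0.64 in EpdSCs. Gas1 in EpdSCs, at 5.03, is the filled point, and the intervals of Smo in both panels lie below 0.

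Ptch1, the receptor and a transcriptional target of the pathway, lies on chromosome 13 from 63508328 to 63573598. It had 48.2 and 51.4 CPM in WT HFSCs against 78.1 and 32.7 CPM in Msx2-KO-labelled libraries. The Msx2-KO-labelled libraries fell on either side of the WT pair. Its log2 fold change of 0.16 had a 95% interval from -1.21 to 1.52 (adjusted p = 0.947, edgeR), turned to -0.63 without Msx2-KO replicate 1 and was also -0.63 when scaled to library totals. In EpdSCs it had 429 and 503 normalized counts in WT against 301 and 169 in Msx2-KO, a log2 fold change of -1.04 (95% interval -2.61 to 0.53, adjusted p = 0.246, limma). Against the median of all EpdSC genes this difference was -0.41. The EpdSC log2 fold change was -1.46 without Msx2-KO replicate 1 and -0.63 without Msx2-KO replicate 2.

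Hhip, a membrane protein that sequesters ligand and is induced by the pathway, was the least abundant member with a row in HFSCs. It had 57 and 29 estimated counts in WT against 0 and 28 in Msx2-KO-labelled libraries, which is 7.61 and 9.37 CPM against 0 and 5.94 CPM. A count of 0 in Msx2-KO replicate 1 allows up to 3 counts, or 0.327 CPM, by counting error only. Its 95% interval ran from -7.96 to 4.92 around -1.52 on the log2 scale (adjusted p = 0.873, edgeR). No difference was detectable between groups whose Msx2-KO-labelled libraries lay as far apart as 0 and 5.94 CPM. Without Msx2-KO replicate 2, where the remaining Msx2-KO-labelled library is at 0, the log2 fold change was -8.80.

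Smo, the membrane protein that carries the signal to the Gli factors, had 55.5 and 60.5 CPM in WT HFSCs against 33.3 and 27.0 CPM in Msx2-KO-labelled libraries. The values within each group lay close together and the groups were apart. The log2 fold change was -0.94 (standard error 0.30, 95% interval -1.77 to -0.11, unadjusted p = 0.0344, adjusted p = 0.221, edgeR). Dropping Msx2-KO replicate 1 gave -1.13 for Smo, and dropping Msx2-KO replicate 2 gave -0.80. EpdSCs showed 1135 and 1382 normalized counts in WT against 350.2 and 427 in Msx2-KO. Again the 2 groups were separate, with a ratio of WT to Msx2-KO means of 3.24. On the log2 scale the difference was -1.69 (standard error 0.48, 95% interval -3.05 to -0.33, unadjusted p = 0.0264, adjusted p = 0.105, limma), and -1.06 against the median of all genes. The difference was -1.55 without Msx2-KO replicate 1 and -1.84 without Msx2-KO replicate 2. At an unadjusted p under 0.05 stood 18.1% of all genes in HFSCs and 35.3% in EpdSCs. The share of mitochondrial ribosomal RNA and the number of genes above 0 differed between the same libraries, as given above, and their part in the Smo values was not tested.

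**Figure D3:**
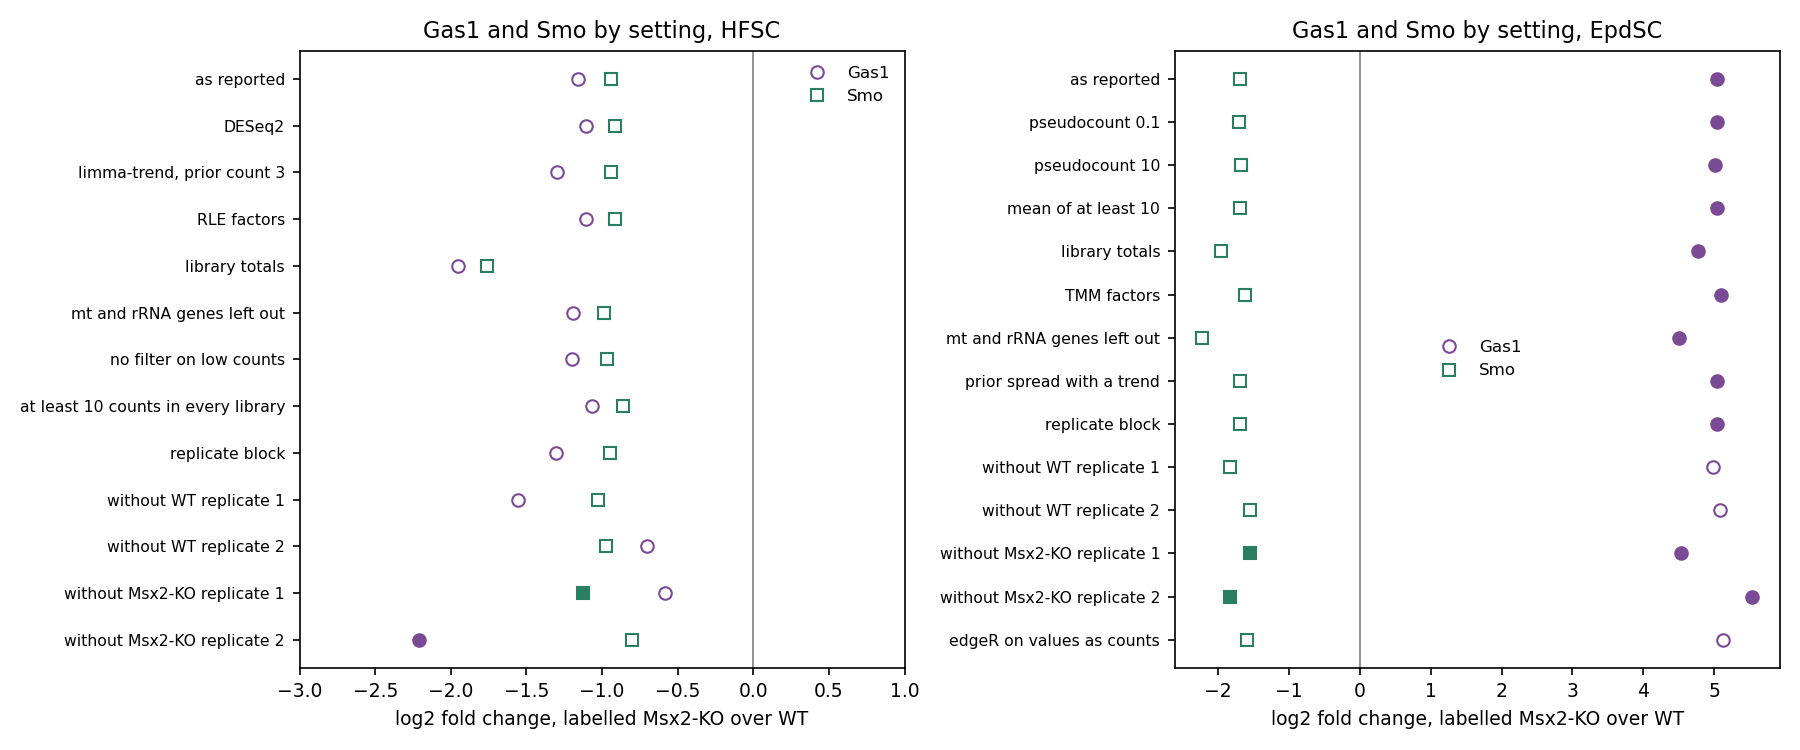
Log2 fold changes of Gas1 (circles) and Smo (squares), Msx2-KO-labelled libraries over WT, under each processing setting on the vertical axis, HFSCs left and EpdSCs right. Filled symbols passed the test. In EpdSCs Gas1 stayed between 4.50 and 5.54 and Smo between -2.22 and -1.55, and in HFSCs both stayed below 0.

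Sufu, which holds Gli proteins in the cytoplasm, lies on chromosome 19 from 46396896 to 46488804. In HFSCs it had 22.4 and 15.5 CPM in WT against 30.7 and 11.04 CPM in Msx2-KO-labelled libraries. The log2 fold change of 0.14 had a 95% interval from -1.80 to 2.08 (adjusted p = 0.972, edgeR), and its sign turned under 5 of 12 alternatives. EpdSC values were 315 and 374 normalized counts in WT against 4771 and 601 in Msx2-KO. Both Msx2-KO values were above WT, but they differed from each other far more than the WT pair did. This gave 2.30 on the log2 scale (standard error 1.18, 95% interval -1.04 to 5.64, adjusted p = 0.235, limma). It was 0.81 without Msx2-KO replicate 1 and 3.79 without Msx2-KO replicate 2.

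Gli1, an activator whose transcript is a common readout of pathway activity, lies on chromosome 10 from 127329882 to 127341974. It was detected in all HFSC libraries, at 35.2 and 33.0 CPM in WT against 28.8 and 27.4 CPM in those labelled Msx2-KO, from 102 to 264 estimated counts. The groups did not overlap, yet the difference was small, with a log2 fold change of -0.28 (95% interval -1.23 to 0.67, adjusted p = 0.825, edgeR). Arhgap9 overlaps Gli1 on the opposite strand and had 7 and 2 estimated counts in WT and 0 in both Msx2-KO-labelled libraries, few beside those of Gli1.

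Gli2, on chromosome 1 from 118834132 to 119053619, is the main activator downstream of Smo. HFSCs had 83.2 and 76.0 CPM in WT against 119 and 99.3 CPM in Msx2-KO-labelled libraries. Both Msx2-KO-labelled libraries were higher, with a log2 fold change of 0.46 (95% interval -0.19 to 1.10, adjusted p = 0.455, edgeR) that became -0.40 when scaled to library totals. In EpdSCs Gli2 was scarce, at 56.3 and 34.1 normalized counts in WT against 26.7 and 19.5 in Msx2-KO. There the difference was -0.91 (95% interval -2.46 to 0.64, adjusted p = 0.289, limma), only -0.27 from the median of all genes.

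Gli3, which acts mainly as a repressor, lies on chromosome 13 from 15463235 to 15730026. Its HFSC values of 91.0 and 76.3 CPM in WT against 104.9 and 68.6 CPM in Msx2-KO-labelled libraries overlapped, with a log2 fold change of 0.05 (95% interval -0.81 to 0.91, adjusted p = 0.975, edgeR). In EpdSCs it had 311 and 557 normalized counts in WT against 2256 and 673 in Msx2-KO. The higher value came from the same library as the higher Sufu value. Its log2 fold change was 1.56 (95% interval -0.81 to 3.93, adjusted p = 0.248, limma), and 0.69 without Msx2-KO replicate 1.

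Levels of different genes were compared per kilobase of annotated exon, within a cell type. In WT HFSCs Gas1 came first, at 67.2 ± 29.4 CPM per kb (SD, n = 2), followed by Gli2 at 11.6 ± 0.74, Smo at 10.3 ± 0.62, Gli3 at 8.72 ± 1.08, Gli1 at 6.83 ± 0.32, Ptch1 at 3.51 ± 0.16, Sufu at 2.47 ± 0.64 and Hhip at 0.94 ± 0.14. No 2 neighbours in that order overlapped between the WT libraries. In Msx2-KO-labelled HFSCs, Gas1 (14.6 and 45.7 CPM per kb) overlapped Gli2 (17.3 and 14.5), and Smo (5.93 and 4.80) overlapped Gli1 (5.76 and 5.48). In WT EpdSCs Smo led, at 224 ± 31.05 normalized counts per kb (SD, n = 2), ahead of Gas1 at 151 ± 6.79. Sufu (41.0 and 48.6) stood above Ptch1 (30.2 and 35.4), Gli3 (32.5 and 58.1) overlapped both, and Gli2 was last at 6.59 ± 2.28. In Msx2-KO-labelled EpdSCs Gas1 led, at 7006 and 3487 normalized counts per kb, and Smo, at 62.3 and 75.9, no longer stood above Sufu or Gli3.

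Ranks were set side by side across the cell types, without a test, as percentiles of the level per kb among the 11876 protein-coding genes with a row in both tables. Gas1 stood at percentile 98.5 and 99.1 in WT HFSCs and at 72.7 and 75.2 in WT EpdSCs. In Msx2-KO-labelled EpdSCs it stood at 98.9 in both libraries, and in Msx2-KO-labelled HFSCs at 89.2 and 98.1. Gli2 stood at 87.5 to 91.6 over the 4 HFSC libraries and at 6.92 to 23.1 over the 4 EpdSC libraries, so its ranges were far apart. Ptch1 was at 43.3 to 67.8 in HFSCs and 21.2 to 37.7 in EpdSCs, also apart. Gli3 was at 76.6 to 85.8 in HFSCs and 29.3 to 74.9 in EpdSCs. Smo ranked 86.6 and 87.1 in WT against 69.9 and 64.7 in Msx2-KO-labelled HFSCs, and 80.9 and 85.7 in WT against 52.7 and 56.6 in Msx2-KO-labelled EpdSCs. Sufu overlapped between the cell types, at 33.6 to 59.8 and 34.4 to 87.4.

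**Figure D4:**
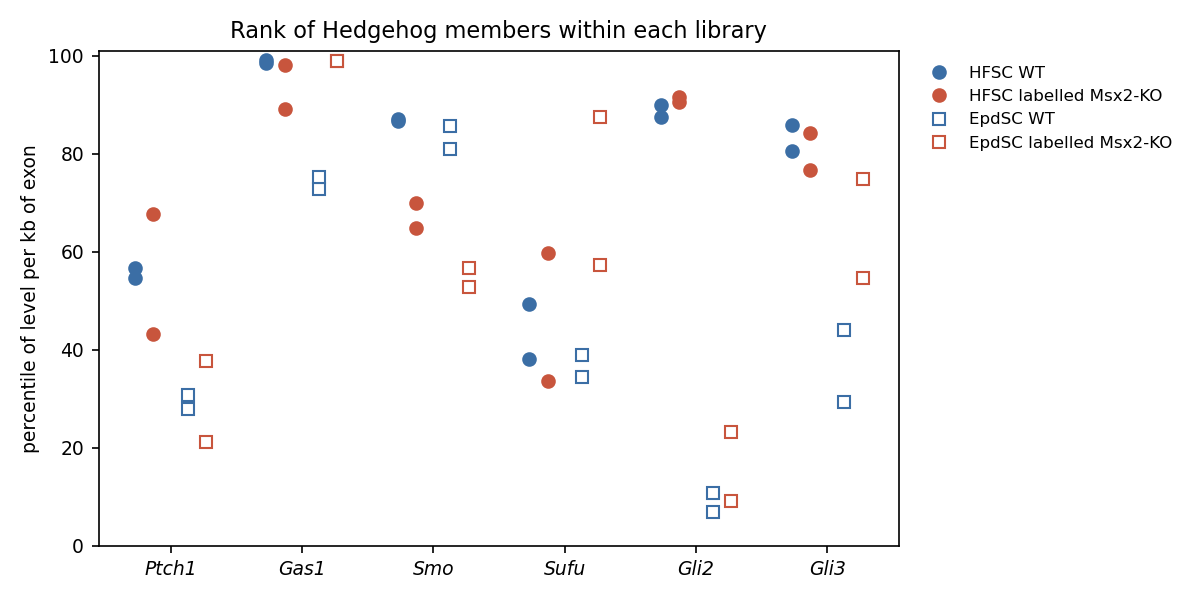
Percentile of the level per kilobase of exon for the 6 members with a row in both tables, among 11876 protein-coding genes of the same library. Circles are HFSC and squares EpdSC libraries, blue WT and red labelled Msx2-KO, and each symbol is 1 library. Gas1 reached 98.9 in both EpdSC Msx2-KO-labelled libraries against 72.7 and 75.2 in WT, and Gli2 ranked high in HFSCs and low in EpdSCs.

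Of 40 further pathway genes listed by role, 32 passed the filter in HFSCs and 32 had a row in the EpdSC table. None of them was called in either cell type, by edgeR in HFSCs and limma in EpdSCs. At an unadjusted p under 0.05 there were 1 of 32 in HFSCs and 9 of 32 in EpdSCs, beside 18.1% and 35.3% of all genes. With edgeR on EpdSC values turned back to counts, 0 of these pathway genes were called as well. Their median log2 fold change was -0.05 in HFSCs and 0.05 in EpdSCs, beside -0.14 and -0.64 for all genes. DESeq2 called 0 of them in HFSCs.

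Of the ligand and release genes, Ihh and Dhh had at most 6 estimated counts in any HFSC library and no EpdSC row. The acyltransferase gene Hhat and the release genes Disp1, Scube2 and Scube3 were tested in HFSCs and none was called, with log2 fold changes from -2.44 to 0.14. In EpdSCs the 3 with a row ran from -4.60 to 1.19.

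Among the receptor-side genes, the co-receptors Cdon and Boc were lower in both Msx2-KO-labelled libraries of both cell types without passing the test. Cdon had a log2 fold change of -1.39 in HFSCs (adjusted p = 0.298, edgeR) and -1.34 in EpdSCs (adjusted p = 0.222, limma). Boc had -0.50 (adjusted p = 0.374, edgeR) and -1.32 (adjusted p = 0.157, limma). Gpc3, a glypican that competes with Ptch1 for ligand, had 41.2 and 82.5 normalized counts in WT EpdSCs against 495 and 255 in Msx2-KO, 2.59 on the log2 scale (adjusted p = 0.0935, limma).

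Cilium genes in EpdSCs had a median log2 fold change of -1.94, and 7 of 11 lay lower in both Msx2-KO-labelled libraries, beside 44.5% of all genes. Kif7, the kinesin that organises the tip of the cilium, had 59.9 and 97.5 normalized counts in WT against 5.09 and 9.44 in Msx2-KO, or -3.28 on the log2 scale (standard error 0.59, adjusted p = 0.0555, limma). Arl13b, a ciliary GTPase, had 692 and 717 in WT against 77.7 and 195 in Msx2-KO (log2 fold change -2.50, adjusted p = 0.0950, limma). Ift172, of the intraflagellar transport machinery, had 471 and 607 against 116 and 166 (-1.94, adjusted p = 0.0950). Evc, which acts with Smo at the base of the cilium, had 430.0 and 359 against 5.09 and 55.3 (-4.41, adjusted p = 0.105). Each of these 4 was separated between the groups and none passed the test. Fewer genes were above 0 in the same Msx2-KO-labelled libraries, as given above, and the part of this in the cilium values was not tested. In HFSCs 3 of 11 cilium genes lay lower in both Msx2-KO-labelled libraries, where 33.5% of all genes did. Those were Gpr161, a ciliary receptor that restrains the pathway (66.3 and 44.3 CPM against 20.9 and 9.55 CPM, log2 fold change -1.85, adjusted p = 0.188, edgeR), Evc (-1.45, adjusted p = 0.417) and Arl13b (-0.90, adjusted p = 0.438).

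Genes of Gli processing, the kinases and ligase parts that turn full-length Gli proteins into repressors or degrade them, had a median log2 fold change of 1.49 in EpdSCs, with 6 of 9 higher in both Msx2-KO-labelled libraries, beside 27.8% of all genes. Prkacb, a catalytic subunit of protein kinase A, had 302 and 328 normalized counts in WT against 7994 and 2531 in Msx2-KO. Its log2 fold change, 3.83 (standard error 0.76, 95% interval 1.69 to 5.98, adjusted p = 0.0628, limma), passed the test with library totals (adjusted p = 0.0495). That setting called 1368 of the 16231 genes tested. Csnk1a1, casein kinase 1 alpha, had 5745 and 5515 against 25621 and 20056 (log2 fold change 2.01, adjusted p = 0.0812, limma). Gsk3b had 2033 and 2038 against 6250 and 5244 (1.49, adjusted p = 0.120). The part of the number of genes above 0 and of the mitochondrial ribosomal RNA share in these values was not tested either. In HFSCs the same 9 genes had a median of 0.19, and the 1 with the smallest p was Spop, a ubiquitin ligase adaptor, at 42.2 and 38.5 CPM in WT against 55.1 and 83.2 CPM in Msx2-KO (log2 fold change 0.78, adjusted p = 0.347, edgeR). Spop turned to -0.12 with library totals. Prkaca, another catalytic subunit of protein kinase A, had 15.2 and 17.8 CPM in WT against 28.9 and 29.9 CPM in Msx2-KO-labelled libraries (log2 fold change 0.83, adjusted p = 0.457, edgeR), and 0.0098 on the log2 scale with library totals.

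Reported targets other than the members had medians of -0.01 in HFSCs and 0.26 in EpdSCs, and 0 of 6 were called in each. Foxm1, a regulator of mitotic genes, had 1.60 and 1.29 CPM in WT HFSCs against 33.9 and 4.46 CPM in Msx2-KO-labelled libraries, a log2 fold change of 3.70 (adjusted p = 0.284, edgeR). The cycling list, headed by Mki67 and Top2a, summed to 43.5 to 51.1 CPM in WT HFSCs and 384 to 542 CPM in Msx2-KO, and its part in the Foxm1 values was not tested. In EpdSCs Foxm1 overlapped between the groups, while the cycling list summed to 2867 to 3531 normalized counts in WT and 3846 to 9174 in Msx2-KO.

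**Figure D5:**
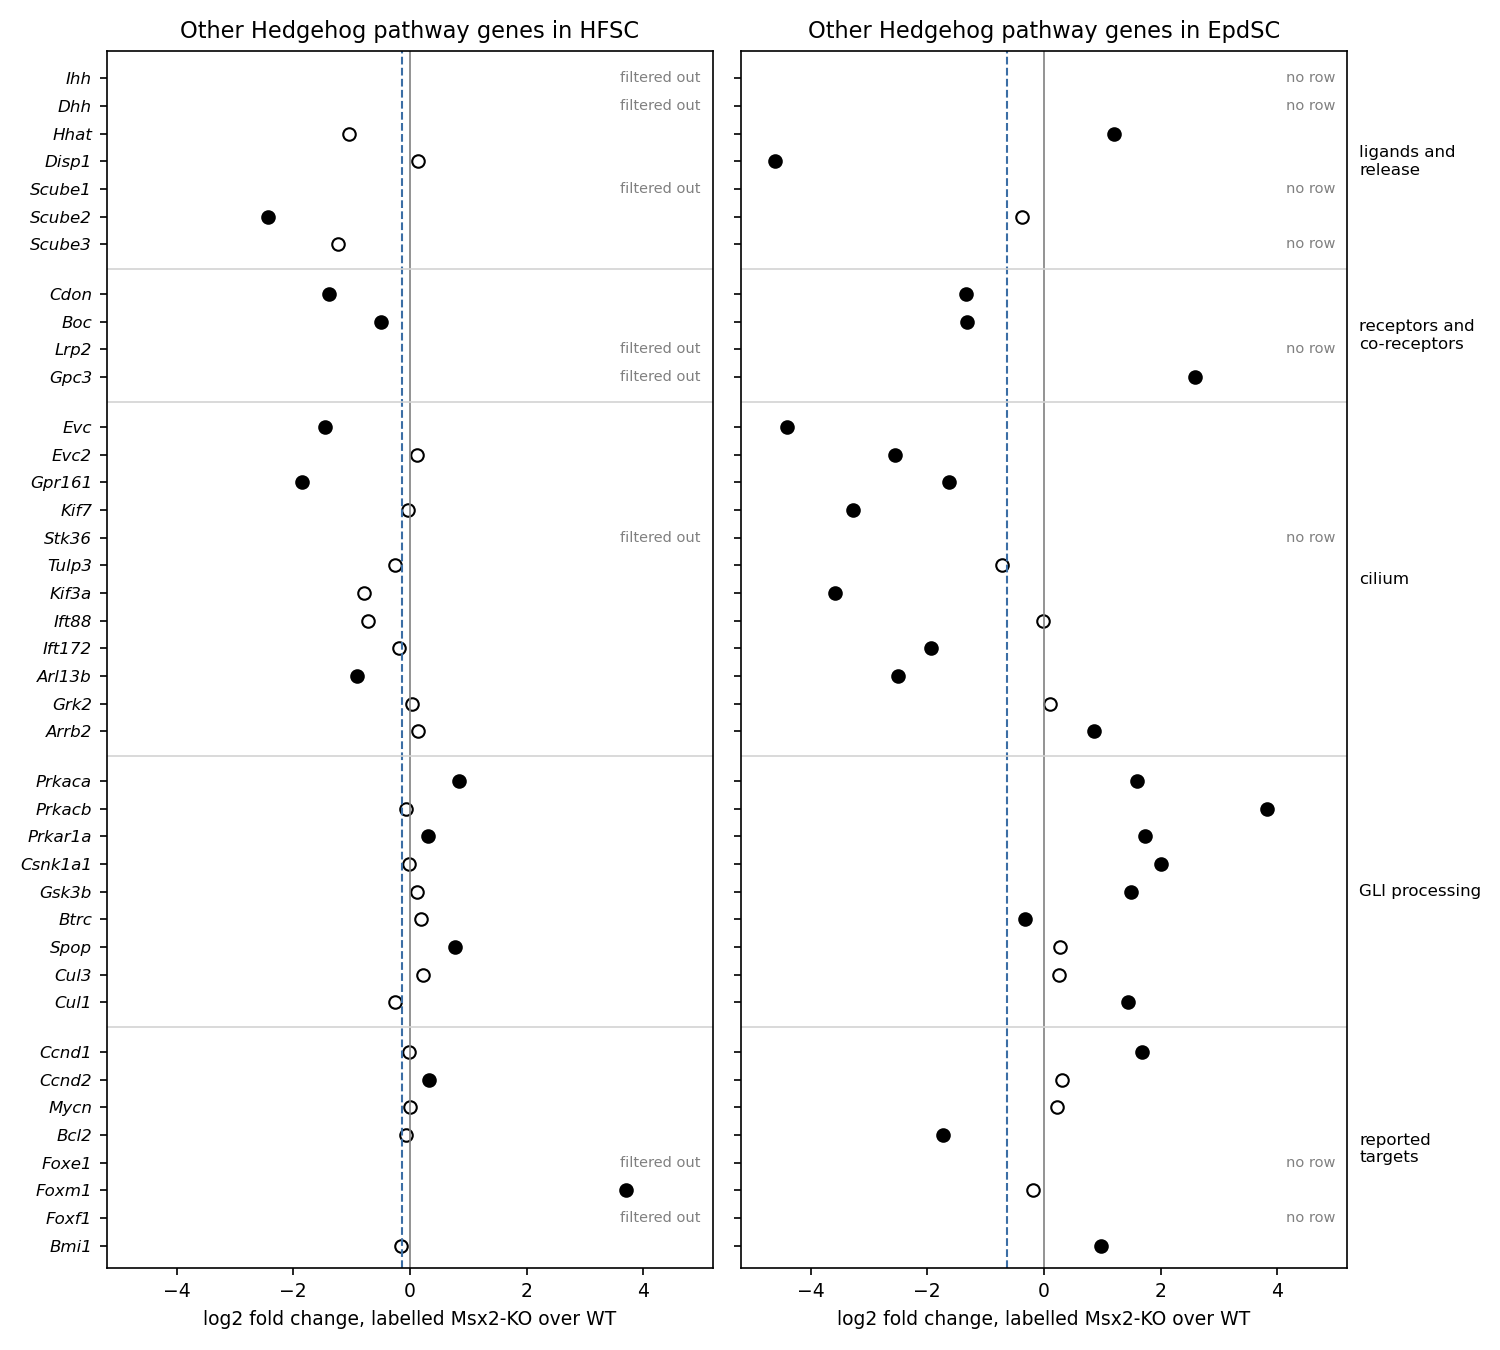
Log2 fold changes of the further Hedgehog pathway genes tested, 32 in each cell type, Msx2-KO-labelled libraries over WT, grouped by role, HFSCs left and EpdSCs right, with no point for listed genes that were filtered out or had no row. Filled points have 2 groups that do not overlap, the dashed line is the median of all genes tested (-0.14 and -0.64), and 0 genes passed the test. Cilium genes lie mostly left of the line in EpdSCs and Gli processing genes right of it.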

How the data were processed

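Bulk RNA-seq covered HFSCs and EpdSCs, each with 2 libraries per genotype, grouped by label. The authors used a stranded kit for total RNA, STAR (2.7.3a in the submitters' processing notes) in Partek Flow, GRCm38/mm10 and GENCODE annotation. For HFSCs the authors deposited estimated counts without normalization. The EpdSC table was deposited as a normalized signal, in which the authors divided estimated counts by 1 factor per library (1 count was worth 0.674 to 1.27), with low genes left out, so that each row reached at least 10.1 in some library. Of low values there, 72.8% to 82.4% were whole multiples of that worth (tolerance 0.01). The share of whole values was similar in the HFSC counts, at 70.7% to 89.7%, and does not separate the 2 tables. EpdSC values were not treated as counts because they were deposited as normalized. The authors' tables of genotype comparisons (fold changes, p-values, means) were not used. Columns of values not mapped to a sample numbered 0.

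HFSC counts were rounded, filtered, TMM-scaled and compared by the quasi-likelihood test of edgeR 4.0.16 over 14422 genes, and EpdSC values with limma 3.58.1 on log2(value + 1) on 16231 genes, since they were normalized when deposited. Fold changes on that scale understate those of low genes. Calls needed more than a 2-fold difference and a p, adjusted over all genes by Benjamini-Hochberg, below 0.05. The edgeR standard error was the log2 fold change divided by the root of its F statistic. Both fits were run on simulated counts set to spread less than the HFSC libraries did, so these runs do not measure power in those libraries. R 4.3.3, DESeq2 1.42.0, Python 3.11.15 and matplotlib 3.10.9 were used. Exon lengths and coordinates were from GENCODE M21 (GRCm38), and promoters from RefSeq, where 7 of the 9 members matched.

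The members, the lists and the tests were chosen with earlier results of these data known. From the lists, 1 pathway gene and 1 marker are not reported here and enter no count of a list. Named beside the members were, in each cell type, the 8 further pathway genes with the smallest unadjusted p among those with groups that do not overlap and a mean of at least 50 in 1 group. HFSC means for this rule were of estimated counts. The extra motifs, the GC and CCAAT boxes, and further genes given with values were chosen after values were seen. Alternatives tried for HFSCs were DESeq2, limma-trend with a prior count of 3, RLE factors, library totals, mitochondrial and ribosomal RNA genes left out, no filter, at least 10 counts in every library, a replicate block and omission of each library. EpdSC alternatives were pseudocounts of 0.1 and 10, a mean of at least 10, library totals, TMM factors, the same genes left out, a prior spread with a trend, the block and each library left out, and edgeR on values turned back to counts, which was added after seeing the data.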

Additional observations from a re-analysis of the deposited data

Results flagged for a closer look

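Gas1 was marked because its Msx2-KO values were under the WT values in HFSCs (log2 fold change -1.16) and over them in EpdSCs (5.03). Gli2 was marked for the opposite order, over the WT values in HFSCs (0.46 with TMM factors, -0.40 with library totals) and under them in EpdSCs (-0.91). Neither difference between the cell types was tested, and the WT mice differed in age between them. The Msx2-KO HFSC and WT EpdSC libraries also bear names from the same number series, apart from those of the other groups. Handling that followed that series cannot be told apart from these opposite directions. Of these 4 fold changes, the EpdSC value of Gas1 passed the test.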

How the results depend on the processing

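In HFSCs 0 members were called under any of the settings that kept all 4 libraries, and 0 to 2 when 1 library was left out. Over all HFSC genes, where 0 were called as reported, DESeq2 called 674, limma-trend 1407, library totals 51, a minimum of 10 counts in every library 2, the replicate block 231, and leaving out 1 library 132 to 9272. Of the further pathway genes, leaving out 1 library gave 0 to 12. Signs turned for Ptch1 (-0.63 with library totals, -0.63 without Msx2-KO replicate 1, up to 0.64 without Msx2-KO replicate 2), for Sufu (-0.014 with limma-trend, -0.72 with library totals, -0.012 with the replicate block, -0.20 without WT replicate 2, -0.82 without Msx2-KO replicate 1, up to 0.67 without Msx2-KO replicate 2), for Gli3 (-0.81 with library totals, -0.16 without WT replicate 2, -0.31 without Msx2-KO replicate 1, up to 0.32 without Msx2-KO replicate 2), and with library totals for Gli2 (-0.40) and Spop (-0.12); library totals moved the median of all genes from -0.14 to -1.002. In EpdSCs the 1 called member was Gas1 in each setting that kept all libraries except edgeR on values turned back to counts (0 members and 0 of all genes called). Leaving out 1 library gave 0 to 3 members, 0 to 19 further pathway genes and 0 to 10376 of all genes, where 1518 were called as reported. Of the 32 further genes, 2 were called at a pseudocount of 10, Kif7 and Prkacb, where 1973 of all 16231 genes were. Prkacb alone of them was called at 3 other settings. These were library totals (1368 of all genes called), mitochondrial and ribosomal RNA genes left out (1478) and a trended prior spread (2132). Where 1 library of a group was left out, the lone sample was assumed to vary like the other group. Same-numbered libraries did not deviate together (correlation of deviations -0.04 in HFSCs and -0.02 in EpdSCs), so they share only a number; with the replicate block Gas1 was at adjusted p = 0.0419 in EpdSCs (limma) and no call of a member differed. Except where stated, the causes of these changes were not tested.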

Other observations

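Gas1 lies 6.71 Mb and Ptch1 10.1 Mb from Msx2 on chromosome 13. Of the 150 other genes within 10 Mb of Msx2 tested in EpdSCs, 3 were called higher (2%) and 10 lower (6.67%), Gas1 being 1 of the 3. Over the 15708 annotated genes elsewhere the shares were 1.57% and 7.42%. In HFSCs 0 of 130 genes in that window were called by edgeR, and their median log2 fold change was -0.21.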
